A study of Arabidopsis thaliana with 87 samples.

Results

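Genes carrying the histone mark H3K27me3 were examined in Arabidopsis thaliana seedlings after 2 h of oxygen deprivation. A gene was counted as marked when its H3K27me3 signal averaged at least 20 RPKM (mapped reads scaled to gene length and library size) over the authors' means for hypoxic and control seedlings. By that rule 7625 of 37539 gene identifiers on chromosomes 1 to 5 were marked, or 20.3%, among them 6171 of 27327 protein-coding genes (22.6%). The hypoxic group, 2HS, was harvested after 2 h in a sealed chamber through which argon was passed in the dark. The control group, 2NS, was harvested after 2 h of darkness in air, and both treatments began at the end of the light period. All seedlings were 7 days old, and those used for H3K27me3 were whole and of the Col-0 accession. H3K27me3 was measured by chromatin immunoprecipitation and sequencing (ChIP-seq) with a Millipore antibody, in 2 libraries of each group. Set beside it were ChIP-seq of H3K4me3 and of RNA polymerase II phosphorylated on Ser2 (3 libraries a group), and of H3K9ac, H3K14ac and the histone variant H2A.Z (2 libraries a group). H2A.Z was read through FLAG-tagged HTA11, 1 of the genes encoding this variant, expressed from its own promoter in transgenic seedlings. Nuclear RNA and poly(A)+ RNA came from seedlings carrying the pUBQ10:NTF and pACT2:BirA transgenes, and ribosome-bound RNA (TRAP) from p35S:RPL18-FLAG seedlings, with 3 libraries a group each. Open chromatin (ATAC-seq) was read in root nuclei of seedlings with the pUBQ10:NTF and pACT2:BirA transgenes, and HRE2 binding in p35S:C2A HRE2-HA seedlings at 2HS. The RNA, H2A.Z, open chromatin and HRE2 data therefore did not come from the plants in which H3K27me3 was measured.

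H3K27me3 is laid down by Polycomb repressive complex PRC2, whose catalytic subunit in seedlings is CURLY LEAF (CLF) or SWINGER (SWN), together with EMF2 or VRN2, FIE and MSI1. The mark covers whole gene bodies of silent genes and is read by LHP1 (TFL2) and the PRC1 proteins. It keeps floral, embryonic and meristem regulators off in tissues where they are not needed. The demethylases REF6 and ELF6 remove it and use molecular oxygen to do so, and VRN2 is itself degraded in an oxygen-dependent way, which is why the mark is of interest under hypoxia. H3K9ac, H3K14ac, H3K4me3 and Ser2-phosphorylated polymerase are features of transcribed genes.

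The deposited columns were group means, and whole reads of each library were recovered from them. The 2HS libraries held 8.47 and 5.17 M reads (M, mega) and the 2NS libraries 8.76 and 4.36 M reads. A marked protein-coding gene had a median of 633 and 369 reads in the 2HS libraries and of 690.0 and 349 reads in the 2NS libraries. The share of gene reads that fell on marked genes was 69.4% and 64.4% in 2HS, against 71.3% and 72.1% in 2NS. The deeper 2HS library stood apart from the other 3. It listed 13.6% of protein-coding genes at 0, against 3.11% in the other 2HS library and 5.89% and 3.66% in the 2NS libraries. Across marked genes its log2 signal correlated with the other libraries at Pearson's r of 0.614 to 0.643, while the other 3 libraries correlated among themselves at 0.868 to 0.916. These correlations are over 6168 genes, which are not independent replicates. In that library 85 marked genes fell under 5 RPKM, with a median length of 588 bases, against 6 in the other 2HS library and 6 and 5 in the 2NS libraries. The median change in the mark, the calls and the shares at least 2-fold apart are also given by library.

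The 6171 marked protein-coding genes made up 21.98% to 23.56% of the protein-coding genes of each of the 5 chromosomes. Their mean H3K27me3 had a median of 48.9 RPKM, quartiles of 32.0 and 72.8 RPKM and a maximum of 246 RPKM. Of them, 2345 lay between 20 and 40 RPKM, 1554 between 40 and 60 RPKM, 1644 between 60 and 100 RPKM, and 628 at 100 RPKM or more. Other protein-coding genes had median H3K27me3 of 4.12 RPKM in 2HS and 3.47 RPKM in 2NS. Just outside the rule were AT4G15260, a UDP-glycosyltransferase gene with 29.02 RPKM in 2HS and 10.96 RPKM in 2NS, AT2G27420 (15.4 and 24.6 RPKM) and AT5G07570 (21.9 and 18.1 RPKM). Just inside were AT4G20565 (18.7 RPKM in 2HS and 21.3 RPKM in 2NS), AT1G26450, a carbohydrate-binding X8 domain gene (25.98 and 14.04 RPKM), and AT1G03700 (17.3 and 22.7 RPKM). At least 20 RPKM was reached in both group means by 5676 marked genes, or 92.0%. Marked genes were short, with a median span of 1558 bases against 2254 bases for the other protein-coding genes.

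Marked genes lay next to each other along the chromosomes. A directly neighbouring protein-coding gene was also marked for 4206 of them (68.2%), whereas 28.9% of the other protein-coding genes had a marked neighbour. They formed 3362 runs, of which 183 held at least 5 genes in a row and together 1193 genes, while 1965 marked genes (31.8%) stood alone. The longest run had 24 genes on chromosome 3, from the cyclin gene CYCP2;1 (AT3G21870) to AT3G22060. It included 6 genes annotated as DUF26 cysteine-rich repeat secretory proteins, and its median signal was 103 RPKM in 2HS and 101 RPKM in 2NS. A run of 17 genes on chromosome 1 from AT1G51805 to AT1G51930 held 8 leucine-rich repeat kinase genes. Neighbouring genes can share reads at their borders and are not independent observations.

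Beside the protein-coding genes, 627 of 3470 long noncoding RNA genes, 301 of 899 transcribed pseudogenes and 228 of 3897 other pseudogenes were marked. So were 76 of 178 microRNA genes and 62 of 602 transfer RNA genes. The microRNA genes and transcribed pseudogenes lay above the 20.3% of all identifiers, and the other classes lay below it. Among the microRNA genes were those of families that time the phase change and pattern meristems and leaves. MIR160a, whose product targets auxin response factors, had 358 and 348 RPKM in the 2HS libraries and 407 and 648 RPKM in the 2NS libraries. MIR165b, which targets class III homeodomain genes, had 411 and 281 RPKM in 2HS and 377 and 305 RPKM in 2NS. The first did not overlap between groups and the second did. MIR172a, a regulator of AP2-type floral repressors, had 179 and 96.7 RPKM in 2HS and 209 and 131 RPKM in 2NS, also overlapping. MIR156e, of the juvenile-phase family, had 44.1 and 107 RPKM in 2HS and 165 and 197 RPKM in 2NS, and both 2HS libraries were below both 2NS libraries. In the 2HS and then the 2NS libraries, deeper first, MIR156e rests on 40 and 59 against 155 and 92 reads, and MIR165b on 634 and 264 against 601 and 242 reads. These differences are given without a test.

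Some protein families were marked far more often than the 22.6% of all protein-coding genes, and others less often. All 6 YABBY genes, which set leaf polarity, were marked, as were 36 of 41 terpene synthase genes (87.8%) and 21 of 30 CLE signalling peptide genes (70%). Between 46.6% and 55.8% were marked among LOB-domain, F-box, pectin-modifying, MYB, cytochrome P450, WRKY, peroxidase, self-incompatibility, MADS-box, NAC and bHLH genes. For F-box genes this was 364 of 654, and for cytochrome P450 genes 120 of 227. ERF and AP2 genes, at 23.1%, and zinc-finger genes, at 24.5%, were near the share of all genes. Genes annotated as ribosomal proteins were marked in 19 of 298 cases (6.38%). Families were taken from words in the gene descriptions, were chosen with earlier results known and overlap in part, so the shares are descriptions without a test.

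**Figure D1:**
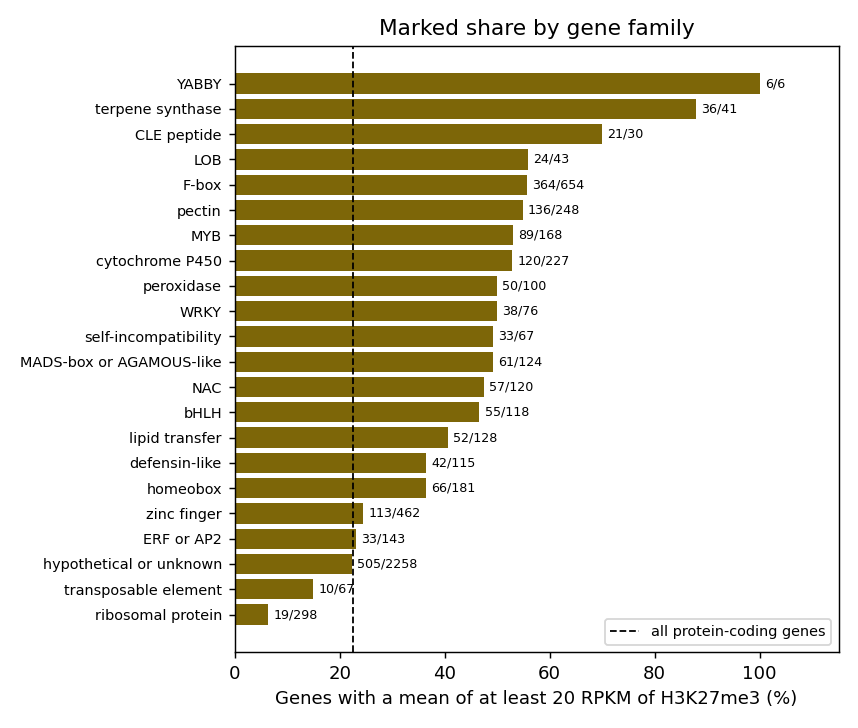
Share of the protein-coding genes of each family that were marked, in percent, with the marked and total number of genes beside each bar. The dashed line is the 22.6% of all protein-coding genes. Bars run from 100% for YABBY genes to 6.38% for ribosomal protein genes.

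Among protein-coding genes the highest mean signal stood over SESA3, a seed storage albumin gene, with 277 and 212 RPKM in 2HS and 265 and 230.2 RPKM in 2NS. M17, a late embryogenesis abundant protein gene, had 252 and 212 RPKM in 2HS and 256 and 247 RPKM in 2NS. The groups overlapped at both genes. Of 14 seed maturation genes, 13 were marked, with a median of 97.2 RPKM. LEC1, a master regulator of embryo development, had 60.1 and 42.4 RPKM in 2HS and 39.5 and 43.6 RPKM in 2NS, and the groups overlapped. FUS3, another of these regulators, had 58.2 and 72.8 RPKM in 2HS and 80.8 and 96.0 RPKM in 2NS, with both 2HS libraries below both 2NS libraries. SESA1, a further albumin gene, had 83.3 and 149 RPKM in 2HS and 184 and 175 RPKM in 2NS. It too did not overlap, and its unadjusted p was 0.029 and its adjusted p 0.96 (limma with Benjamini-Hochberg adjustment over all genes). Other genes among the 12 highest were AT5G40790, AT3G12420, the nuclear factor gene NF-YC7 and the lipid-transfer genes LTP4, AT4G12500 and AT4G15160. AT1G23650, an 87-base entry, ranked second but had 510.2 and 75.6 RPKM in 2HS and 228 and 169 RPKM in 2NS, the widest spread among the highest 3.

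Floral and meristem regulators were nearly all marked. Of 28 floral and flowering MADS-box genes matched, 1 of them listed at 0, 23 were marked, with a median of 65.8 RPKM. AGAMOUS (AG), which specifies stamens and carpels, had 80.1 and 63.1 RPKM in 2HS and 76.5 and 82.3 RPKM in 2NS. APETALA1 (AP1), which specifies floral meristems, had 117 and 101 RPKM in 2HS and 123 and 134 RPKM in 2NS. AG overlapped between groups, and AP1 was lower in both 2HS libraries. AP3, a petal and stamen gene, had 36.8 and 59.2 RPKM in 2HS and 77.1 and 85.3 RPKM in 2NS, likewise without overlap, at an unadjusted p of 0.035 and an adjusted p of 0.96 (limma, Benjamini-Hochberg). FLC, the vernalization-controlled floral repressor, was listed at 0 in all columns, as were 575 protein-coding genes in every 2HS and 2NS column of all assays. Such genes are counted among the other protein-coding genes, as not marked and as under 1 RPKM in RNA, though no reads were listed for them in any assay. All 14 meristem homeobox genes were marked, with a median of 72.7 RPKM. SHOOT MERISTEMLESS (STM) had 162 and 107 RPKM in 2HS and 140.0 and 139 RPKM in 2NS, and WUSCHEL (WUS), the stem cell organizer gene, had 112 and 108 RPKM in 2HS and 139 and 148 RPKM in 2NS. STM overlapped between groups and WUS did not. All 11 organ boundary and polarity genes were marked, CUC2 with 124 and 108 RPKM in 2HS and 132 and 139 RPKM in 2NS, lower in both 2HS libraries. Of 5 florigen-family genes 4 were marked, and FT, which encodes the mobile flowering signal, had 92.0 and 55.8 RPKM in 2HS and 57.3 and 60.9 RPKM in 2NS, with the groups overlapping. The median centred log2 difference, taken between the authors' means, was -0.20 for the MADS-box, -0.21 for the meristem homeobox, -0.05 for the seed maturation, -0.28 for the boundary and -0.22 for the florigen-family genes, and -0.15 for all marked genes. From the deeper 2HS library alone these medians were 0.12, 0.12, 0.27, 0.01 and 0.10, and from the shallower alone -0.44, -0.42, -0.33, -0.45 and -0.48, so their sign turned with the library. No listed gene reached a 2-fold difference.

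Few genes of the Polycomb machinery were themselves marked. Of 8 PRC2 subunit genes, only MEDEA (MEA) and FIS2, which act in the seed, were marked. MEA had 76.5 and 65.8 RPKM in 2HS and 74.8 and 79.0 RPKM in 2NS, and FIS2 had 32.8 and 32.8 RPKM in 2HS and 21.5 and 31.1 RPKM in 2NS. MEA overlapped between groups, and FIS2 was higher in both 2HS libraries than in both 2NS libraries. CLF, SWN, EMF2, VRN2, FIE and MSI1 lay between 1.46 and 6.01 RPKM in either group mean. Among 10 PRC1 and reader genes, EMF1 and the vernalization gene VIN3 were marked. EMF1 had 26.4 and 40.2 RPKM in 2HS and 49.1 and 40.3 RPKM in 2NS, with 2HS below 2NS but the nearest values of the groups almost equal. None of the 4 demethylase genes matched was marked, and REF6 had 0.362 and 4.16 RPKM in 2HS and 1.42 and 1.53 RPKM in 2NS. In TRAP RNA limma called 1 of 3 demethylase genes tested, as higher in 2HS, 0 of 6 PRC2 genes and 0 of 8 PRC1 and reader genes, against 13.2% of all genes higher and 12.7% lower. In poly(A)+ RNA 2, 1 and 5 genes of these lists could be tested and in nuclear RNA 3, 6 and 8, and none was called. Of all genes tested, 5.37% were called higher and 6.19% lower in poly(A)+ RNA, and 1.25% and 0.124% in nuclear RNA. With so few genes tested, no call says little.

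Markers of single cell types differed in whether they were marked. All 4 root hair, all 3 stem cell niche, 2 of 4 endodermis, 2 of 5 guard cell and 1 of 2 phloem companion cell markers were marked, against 0 of 3 leaf mesophyll markers. APL, a phloem gene, had 154 and 114 RPKM in 2HS and 121 and 160.2 RPKM in 2NS, with the groups overlapping. RBCS1A, a mesophyll marker, had 10.2 and 14.6 RPKM in 2HS and 19.5 and 10.2 RPKM in 2NS. In whole seedlings, a gene that is marked in most cells and read in a few cannot be told apart from a gene marked and read in the same cells, and fewer cells of a type cannot be told apart from less RNA per cell.

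Most marked genes had almost no RNA in either group. Under 1 RPKM in nuclear RNA were 84.1% in 2HS and 81.6% in 2NS of marked genes, against 44.6% in 2HS and 34.2% in 2NS of the other protein-coding genes. In poly(A)+ RNA these shares were 84.0% in 2HS and 86.0% in 2NS for marked genes and 49.8% in 2HS and 53.5% in 2NS for the others. In TRAP RNA they were 74.5% in 2HS and 74.6% in 2NS for marked genes and 33.5% in 2HS and 33.1% in 2NS for the others. In all 3 RNA assays and both groups, 4137 marked genes (67.0%) and 25.4% of the others stayed under 1 RPKM. The share of silent genes grew with the level of the mark in nuclear and poly(A)+ RNA, and in TRAP RNA up to the class of 60 to 100 RPKM. In poly(A)+ RNA of 2HS it was 80.6% at 20 to 40 RPKM of H3K27me3 and 87.4% at 100 RPKM and above, and in 2NS it was 83.2% and 88.5% in those classes. Families differed: all 33 marked self-incompatibility genes and 97.8% of marked F-box genes in 2HS were under 1 RPKM in poly(A)+ RNA, against 33.3% of marked YABBY and 56% of marked peroxidase genes.

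**Figure D2:**
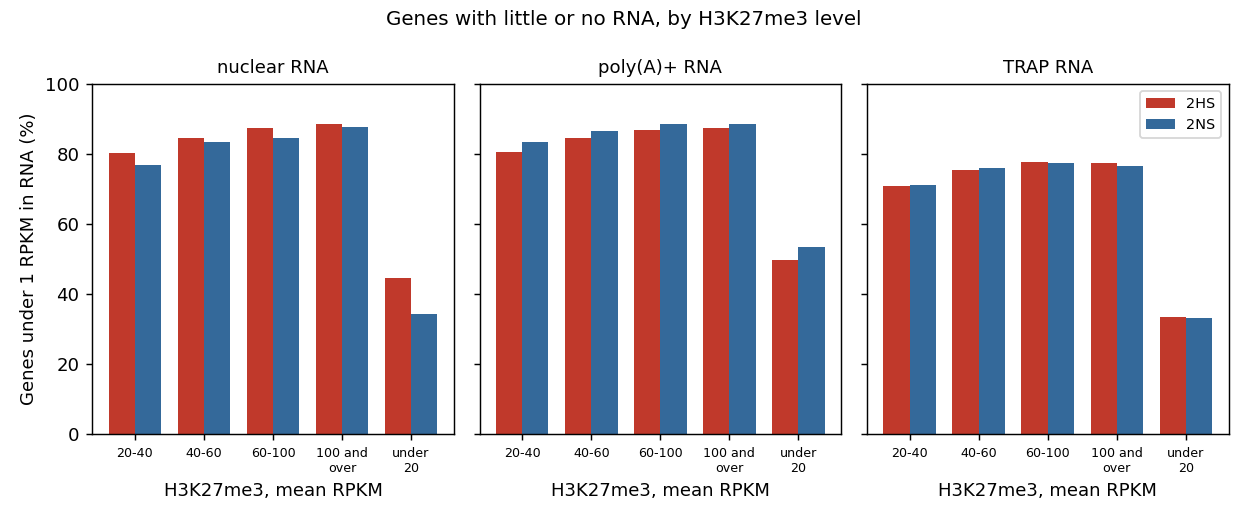
Percentage of protein-coding genes under 1 RPKM in nuclear, poly(A)+ and TRAP RNA, by mean H3K27me3 in RPKM, in 2HS (red) and 2NS (blue) group means; the class under 20 RPKM holds the genes that are not marked. In each panel the 4 marked classes stand above 70%, and the genes that are not marked stand between 33.1% and 53.5%.

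A minority of marked genes had abundant RNA. LP1, a lipid-transfer protein of the epidermis, had 97.7 and 84.2 RPKM in 2HS and 109 and 101 RPKM in 2NS of H3K27me3 and a mean of 839 RPKM in 2HS and 696 RPKM in 2NS in poly(A)+ RNA. PRP4, a proline-rich cell wall protein gene, had 45.2 and 41.1 RPKM in 2HS and 34.7 and 54.4 RPKM in 2NS of the mark and 471 RPKM in 2HS and 414 RPKM in 2NS of poly(A)+ RNA. LP1 was lower in mark in both 2HS libraries, and PRP4 overlapped. The lectin gene PBP1, the glycine-rich protein gene GRP23, AT2G45180, AT2G10940 and AT4G23670 were the other marked genes with the most poly(A)+ RNA, at group means of 289 to 921 RPKM. RBCS2B, a Rubisco small subunit gene, topped the list at 1425 RPKM in 2HS and 923 RPKM in 2NS, but it has near-identical copies, so its reads in any assay are uncertain.

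Marked genes also carried less of the features of transcribed genes. Median H3K4me3 was 7.68 RPKM in 2HS and 6.52 RPKM in 2NS at marked genes, against 13.9 RPKM in 2HS and 13.8 RPKM in 2NS at the others. Median H3K9ac was 6.92 RPKM in 2HS and 6.46 RPKM in 2NS at marked genes, against 13.0 RPKM in 2HS and 13.5 RPKM in 2NS at the others. For Ser2-phosphorylated polymerase the medians were 8.56 RPKM in 2HS and 8.60 RPKM in 2NS at marked genes and 10.5 RPKM in 2HS and 12.0 RPKM in 2NS at the others, and for H3K14ac 11.5 RPKM in 2HS and 12.5 RPKM in 2NS and 13.5 RPKM in 2HS and 13.6 RPKM in 2NS. H2A.Z ran the other way, with 21.3 RPKM in 2HS and 24.2 RPKM in 2NS at marked genes and 12.8 RPKM in 2HS and 11.8 RPKM in 2NS at the others. H2A.Z over the bodies of silent, responsive genes is known in Arabidopsis. Median H3K14ac was higher in each higher class of the mark. At 100 RPKM of H3K27me3 and above it was 13.8 RPKM in 2HS and 15.0 RPKM in 2NS, above the medians of the other genes. In the authors' peak lists for root nuclei (ATAC-seq, a measure of open chromatin), 20.1% of marked genes had a 2HS peak from 1000 bases before to 100 bases after their start, against 45.3% of the others; for 2NS peaks the shares were 8.78% and 24.4%. The 2HS list held 27219 peaks and the 2NS list 14399, so the 2 lists cannot be compared for change. A peak of HRE2, a hypoxia-response transcription factor expressed as the C2A form from p35S and pulled down through its HA tag in 2HS seedlings, lay in that window at 2.22% of marked genes and 5.10% of the others.

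Between 2HS and 2NS the group means of the mark differed little at most marked genes. The median mark at marked protein-coding genes was 46.5 RPKM in 2HS and 50.5 RPKM in 2NS. After a pseudocount of 1 RPKM and centring on the median gene, the median log2 difference of the authors' means (2HS minus 2NS) was -0.15, with quartiles of -0.36 and 0.06. The other protein-coding genes had a median of 0.10. Within 1.5-fold were 5299 marked genes (85.9%), while 33.7% of all genes were at least 1.5-fold apart, and within 2-fold 5994 (97.1%). At least 2-fold higher in 2HS were 57 marked genes (0.924%), against 7.89% of all genes averaging 1 RPKM or more, and at least 2-fold lower were 120 marked genes (1.94%), against 4.99%. The share at least 2-fold apart was 5.29% of marked genes at 20 to 40 RPKM and 0.796% of those at 100 RPKM and above. Marked genes have more signal than the rest, so their shares and those of all genes are not on an equal footing. RPKM is scaled to the reads of each library and the differences are centred, so a gain or loss shared by all genes would not show.

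**Figure D3:**
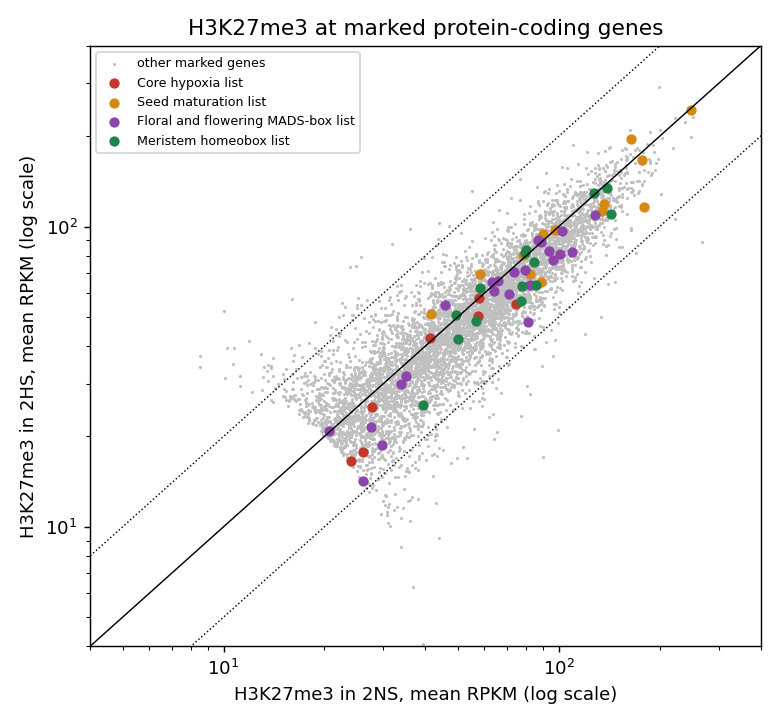
Mean H3K27me3 in 2HS (vertical) against 2NS (horizontal) of marked protein-coding genes, in RPKM on log axes, with 4 gene lists in colour. Genes with a mean below the start of an axis, such as AT3G44261, are not shown. The solid line marks equal values and the dotted lines a 2-fold difference of the uncentred means. No coloured gene lies outside the dotted lines. The 97.1% of marked genes within 2-fold was counted after a pseudocount and centring, which the plot does not use.

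No gene passed limma's test at an adjusted p of 0.05 (Benjamini-Hochberg over 26113 genes). The smallest adjusted p was 0.96, and 0% of all genes were called in either direction. At an unadjusted p under 0.05 were 242 marked genes (3.92%), 28 higher and 214 lower in 2HS, against 4.02% of all genes, 519 higher and 530 lower. Both 2HS libraries lay below both 2NS libraries at 1879 marked genes (30.5%), against 14.2% of all genes, and above them at 419 (6.79%), against 19.7%. These orderings, and the overlaps stated for single genes, are of RPKM before centring, unlike the test. The median standard error of a marked gene's log2 difference was 0.36, and the median half-width of its 95% interval was 0.79, before any adjustment for the number of genes. AT1G34510, with a difference of -0.93 ± 0.33 (SE), had an adjusted p of 0.96 (limma, Benjamini-Hochberg). Because nothing in the labels beyond replicate numbers says that the libraries came from separate cultures, the p-values measure the spread between these libraries.

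The direction of the small shift rested on which 2HS library was read. The 8.47 M-read 2HS library alone differed from the mean of the 2NS libraries by a median log2 of 0.05 over marked genes, with an SD of 0.80. The 5.17 M-read 2HS library alone differed by -0.30, with an SD of 0.30. The 2 2NS libraries differed from each other by -0.02, with an SD of 0.42. At the 57 genes at least 2-fold higher, the deeper 2HS library was at least 2-fold higher at 56 and the shallower at 7. At the 120 genes at least 2-fold lower, these counts were 116 and 19. Of all marked genes, 12.1% were at least 2-fold apart from the 2NS mean in the deeper 2HS library and 1.78% in the shallower. The deeper 2HS library's difference from the mean of the other 3 libraries was widest at short genes, with an SD of 1.24 under 1000 bases, 0.65 in the class above it and 0.44 among the longest genes. The SD also fell with length in those 3 libraries, each set against the mean of the rest without the deeper 2HS library. It was 0.45 to 0.57 under 1000 bases and 0.21 to 0.25 among the longest genes. Without the shallower 2HS library, limma called 2072 genes (7.93% of all), among them 658 marked genes, 272 higher and 386 lower in 2HS. Without the deeper 2HS library it called 0. Without the 8.76 M-read and the 4.36 M-read 2NS library it called 4 and 25. In these fits a lone library is assumed to vary like the other group.

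**Figure D4:**
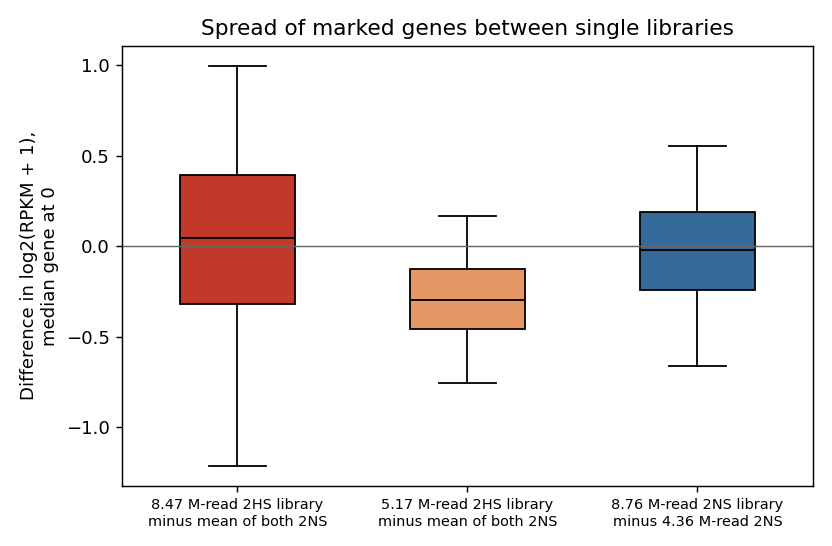
Differences in log2(RPKM + 1) over 6168 marked genes, with the median of all genes at 0: each 2HS library minus the mean of the 2NS libraries, and the 2 2NS libraries from each other. Boxes span the quartiles with the median as a line, and whiskers run to the 5th and 95th percentile. The box of the deeper 2HS library spans 0, and that of the shallower lies wholly below it.

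The genes with the largest differences were mostly short and rested on the deeper 2HS library. AT3G44261, a 129-base retrotransposon-like entry, had 72.3 and 4.50 RPKM in 2HS and 0 and 3.56 RPKM in 2NS. AT5G57535, a 135-base entry, had 77.0 and 8.59 RPKM in 2HS and 0 and 6.80 RPKM in 2NS. In both, 1 library of 2HS was high, and the other lay only just above the 2NS libraries. SMP1, a seed maturation protein gene, was high in both 2HS libraries, with 64.1 and 50.9 RPKM in 2HS and 10.6 and 21.4 RPKM in 2NS, and the groups did not overlap. At the other end, AT5G28491 had 1.87 and 32.2 RPKM in 2HS and 109 and 71.1 RPKM in 2NS, and AT2G43530, a knottin-like gene, had 0 and 12.6 RPKM in 2HS and 43.6 and 29.9 RPKM in 2NS. Again the deeper 2HS library gave the lowest value of the 4. AT4G29033, a defensin-like gene, had 10.5 and 10.5 RPKM in 2HS and 34.7 and 37.3 RPKM in 2NS, low in both 2HS libraries. None of these passed the test, each at an adjusted p of at least 0.96 (limma, Benjamini-Hochberg).

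Of the other chromatin features, H3K9ac was called at the most marked genes. It rose at 494 of 6169 marked genes tested (8.01%), against 6.46% of all genes tested, and fell at 156 (2.53%), against 4.56% (limma, adjusted p under 0.05). Without 1 of the libraries the marked genes called numbered 394 (2HS library of 3.87 M reads), 376 and 355 (2NS libraries of 11.3 and 10.6 M reads) and 657 (2HS library of 8.73 M reads), in place of 650. H3K14ac rose at 21 and fell at 12 of 6171 marked genes, against 0.411% and 0.2% of all genes, and none was called without the 2HS library of 3.55 M reads or without either 2NS library. H3K4me3 and Ser2-phosphorylated polymerase gave 0 calls over all genes tested (0% each), with 378 of 5826 (6.49%) and 211 of 5349 (3.94%) marked genes at an unadjusted p under 0.05, against 6.92% and 3.52% of all genes. Genes with several possible sets of library reads were not tested there. Among them, mean Ser2-phosphorylated polymerase was 114 RPKM in 2HS and 19.5 RPKM in 2NS at BCB. The means were 67.3 RPKM in 2HS and 4.26 RPKM in 2NS at HSP17.6A and 11.7 and 44.3 RPKM at RBCS2B. The 0 calls do not cover such genes. H2A.Z fell at 1 marked gene, BCB, and rose at 0, against 0.0643% and 0.0151% of all genes, with 589 marked genes (9.55%) at an unadjusted p under 0.05, against 11.5% of all genes. Without the 2HS library of 10.0 M reads, limma called 1184 marked genes for H2A.Z, 1087 of them lower, and without any other library at most 14.

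Of the marked genes with at least 1 RPKM, a part could be tested in RNA. TRAP RNA rose at 308 of 1377 marked genes tested (22.4%), against 13.2% of all genes tested, and fell at 169 (12.3%), against 12.7%. Poly(A)+ RNA rose at 112 of 805 (13.9%), against 5.37%, and fell at 71 (8.82%), against 6.19%. Nuclear RNA rose at 28 of 1041 (2.69%), against 1.25%, and fell at 2 (0.192%), against 0.124%. The filter was a mean of 1 RPKM over both groups, and 105, 112 and 155 marked genes tested in TRAP, poly(A)+ and nuclear RNA had under 1 RPKM in 2NS and passed it through 2HS (7.63%, 13.9% and 14.9%, against 3.39%, 7.99% and 4.22% of all genes tested). Such genes had to differ, and 64 of the 308, 51 of the 112 and 10 of the 28 genes that rose were among them, so the shares that rose are not read against those of all genes. The nuclear RNA libraries stood apart from each other in scale, their median gene lying from -0.91 to 0.92 on the log2 scale around the mean, and so did the poly(A)+ libraries, from -0.66 to 0.65, whereas TRAP libraries lay within -0.07 and 0.05. Each library was therefore centred on its median gene. When groups and not libraries were centred, 19 marked genes were called in poly(A)+ RNA, in place of 183, a setting chosen after seeing the data. Of those 19, 18 were higher and 1 was lower, and with no centring 32 were higher and 1 lower, in place of 112 higher and 71 lower. Without 1 library the marked genes called ranged from 374 to 495 in TRAP RNA, from 132 to 182 in poly(A)+ RNA and from 15 to 32 in nuclear RNA, where the count was 19 or fewer without any library but the deepest of each group. Genes with many reads often had more than 1 possible set of library reads and were not tested, and only their group means are given.

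Of 43 core hypoxia genes, which rise in many Arabidopsis studies of low oxygen and were listed with earlier results known, 7 were marked and 3 were listed at 0. PCO2 (AT5G39890), a plant cysteine oxidase that uses oxygen to mark proteins for degradation, had 8.55 and 26.96 RPKM in 2HS and 23.9 and 28.3 RPKM in 2NS of H3K27me3. Its nuclear RNA was 12.4, 36.0 and 75.3 RPKM in 2HS and 0.904, 2.03 and 5.13 RPKM in 2NS (log2 difference 3.76 ± 0.45 (SE), adjusted p = 8.62e-05; limma). All 3 hypoxic libraries lay above all controls in RNA, while the mark overlapped. The SAD6 desaturase gene FTM1 (AT1G43800) had 57.1 and 53.6 RPKM in 2HS and 81.9 and 67.1 RPKM in 2NS of the mark, lower in both 2HS libraries, and nuclear RNA of 7.57, 21.2 and 47.8 RPKM in 2HS and 3.82, 4.36 and 5.54 RPKM in 2NS (log2 difference 2.33 ± 0.53 (SE), adjusted p = 0.0277; limma). AT5G66985, which encodes an uncharacterized protein, had 58.6 and 26.4 RPKM in 2HS and 41.4 and 41.2 RPKM in 2NS of the mark, with the groups overlapping. Its poly(A)+ RNA was 29.2, 99.4 and 134 RPKM in 2HS and 0.990, 2.53 and 6.07 RPKM in 2NS (log2 difference 4.14 ± 0.30 (SE), adjusted p = 6.79e-09; limma). PHI-1, an EXORDIUM-like cell wall gene, had 73.4 and 42.0 RPKM in 2HS and 50.6 and 65.0 RPKM in 2NS of the mark and 11.6, 34.2 and 64.5 RPKM in 2HS and 2.60, 4.87 and 5.91 RPKM in 2NS of poly(A)+ RNA (log2 difference 2.35 ± 0.29 (SE), adjusted p = 6.38e-06; limma). The mark overlapped between groups at PHI-1 and RNA did not. AT1G19530 and AT5G42200 also rose in nuclear RNA, and AT5G45960, a GDSL lipase gene, stayed under 1 RPKM in all 3 RNA assays, at group means of at most 0.238 RPKM. H3K9ac rose at 4 of the 7, among them PCO2, at 61.6 and 63.2 RPKM in 2HS and 17.0 and 17.1 RPKM in 2NS (log2 difference 1.83 ± 0.15 (SE), adjusted p = 4.45e-05; limma). Among all marked genes tested H3K9ac rose at 8.01%, and among all genes tested at 6.46%. The other core genes were not marked. Over all 43, nuclear RNA rose at 23 of 29 tested, poly(A)+ RNA at 14 of 14 and TRAP RNA at 9 of 9, and H3K9ac rose at 26 of 40, with no fall in any of these. The shares that rose among all genes tested were 1.25%, 5.37%, 13.2% and 6.46%. H2A.Z fell at 5 of 40 core genes and rose at 0, against 0.0643% and 0.0151% of all genes. The list holds genes known to rise in low oxygen, so these counts hold no test of the rise.

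In all 3 RNA assays 11 marked genes rose. All of them but AT5G42200 (3.05 RPKM) had under 1 RPKM of poly(A)+ RNA in 2NS and passed the filter there through 2HS. Such genes had to differ, so the count is a description and holds no test. Genes not tested in every RNA assay, such as BCB and PCO2, could not be among the 11. WRKY70, a regulator of salicylate and jasmonate defence, had TRAP RNA of 33.8, 40.3 and 46.5 RPKM in 2HS and 0.620, 0.700 and 0.711 RPKM in 2NS (log2 difference 4.67 ± 0.19 (SE), adjusted p = 1.99e-09; limma). Its H3K27me3 was 36.8 and 43.0 RPKM in 2HS and 33.9 and 52.6 RPKM in 2NS. The mark overlapped between groups, and its log2 difference had a 95% interval of -0.88 to 0.74. AUF2, an F-box gene of the auxin response, had TRAP RNA of 75.2, 78.9 and 80.2 RPKM in 2HS and 2.03, 2.58 and 2.59 RPKM in 2NS (log2 difference 4.61 ± 0.18 (SE), adjusted p = 1.99e-09; limma) and H3K27me3 of 45.1 and 23.3 RPKM in 2HS and 22.9 and 37.8 RPKM in 2NS. PFK3, a phosphofructokinase of glycolysis, had TRAP RNA of 13.9, 13.9 and 17.5 RPKM in 2HS and 0.945, 1.19 and 1.44 RPKM in 2NS and H3K27me3 of 18.4 and 16.1 RPKM in 2HS and 29.4 and 24.4 RPKM in 2NS. AUF2 overlapped in the mark, and PFK3 was lower in both 2HS libraries. HSP17.6A, a small heat shock protein gene, had H3K9ac of 34.5 and 50.1 RPKM in 2HS and 4.08 and 6.45 RPKM in 2NS (log2 difference 2.81 ± 0.27 (SE), adjusted p = 0.000124; limma) and H3K27me3 of 32.7 and 18.2 RPKM in 2HS and 28.1 and 21.1 RPKM in 2NS. BPS3, a BYPASS-family gene, had H3K9ac of 56.8 and 63.8 RPKM in 2HS and 6.25 and 7.98 RPKM in 2NS (log2 difference 2.94 ± 0.21 (SE), adjusted p = 3.72e-05; limma) and H3K27me3 of 27.2 and 26.4 RPKM in 2HS and 48.2 and 38.1 RPKM in 2NS. HSP17.6A overlapped in the mark, and BPS3 was lower in both 2HS libraries. The other 6 were the cytochrome P450 gene CYP81D11, the zinc-finger gene AT3G46080, the RING-domain gene AT5G42200, the hydrolase gene AT1G68620, AT1G15010 and AT5G43520. At AT1G15010 the H3K27me3 values were 0.152 and 21.9 RPKM in 2HS and 30.9 and 28.1 RPKM in 2NS, and the value near 0 came from the library that stood apart. In H3K27me3 both 2HS libraries were below both 2NS libraries at 6 of the 11 genes and above them at 1 (CYP81D11), and the groups overlapped at 4; over all marked genes the shares below and above were 30.5% and 6.79%, and over all genes 14.2% and 19.7%. H3K9ac rose at 9 of the 11, against 8.01% of marked genes and 6.46% of all genes tested, but the 11 were chosen for a rise in RNA. None of the 11 passed the test for the mark, each at an adjusted p of at least 0.96 (limma, Benjamini-Hochberg).

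**Figure D5:**
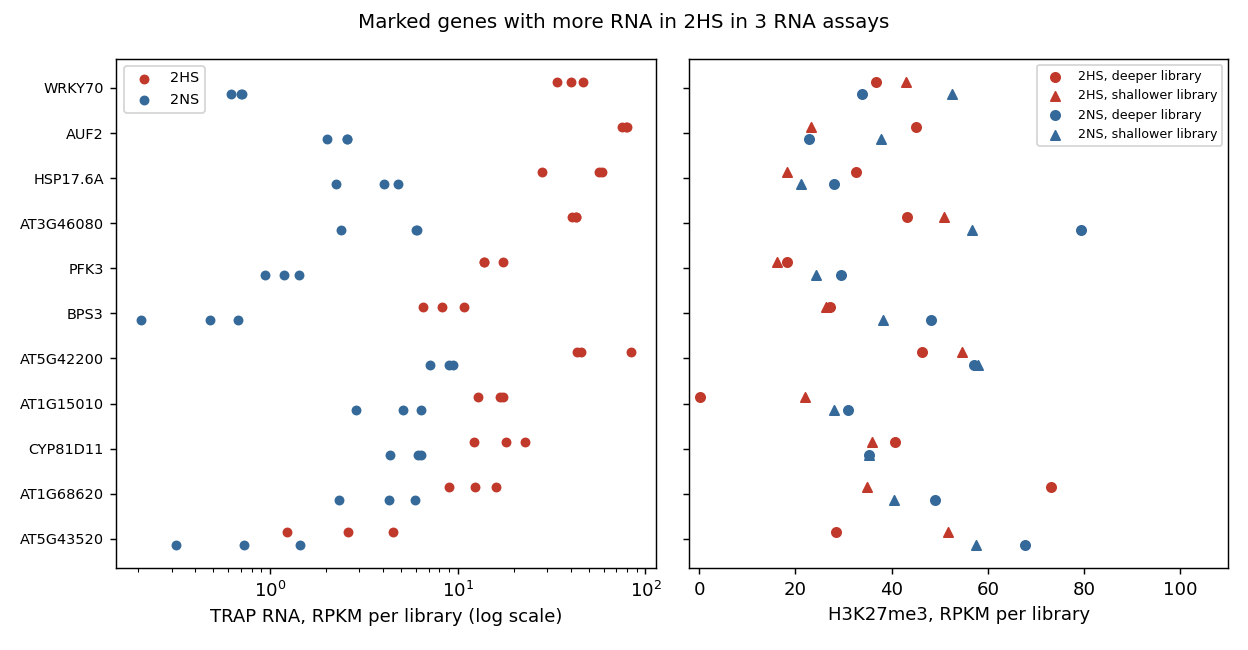
RPKM in each library of the 11 marked genes that rose in nuclear, poly(A)+ and TRAP RNA: TRAP RNA on a log axis (left) and H3K27me3 on a linear axis (right), 2HS in red above 2NS in blue; on the right circles are the deeper and triangles the shallower library. In TRAP RNA all 2HS values lie above all 2NS values at 10 of the 11 genes; in the mark the groups overlap at 4, 2HS is lower at 6 and higher at 1. The genes were chosen for their rise in RNA.

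H3K9ac rose along a group of neighbouring marked genes. AT3G46070, AT3G46080 and ZAT7 (AT3G46090), which encode C2H2 zinc-finger proteins, lie close together on chromosome 3 with AT3G46086, annotated as a hypothetical protein. Mean H3K9ac was 47.8 RPKM in 2HS and 8.76 RPKM in 2NS at AT3G46070, 89.1 RPKM in 2HS and 16.9 RPKM in 2NS at AT3G46086 and 44.8 RPKM in 2HS and 13.9 RPKM in 2NS at ZAT7, with adjusted p of 0.000124, 7.55e-05 and 0.000118 (limma). ZAT7 had poly(A)+ RNA of 7.02, 17.2 and 18.1 RPKM in 2HS and 0.244, 0.700 and 1.12 RPKM in 2NS (log2 difference 2.90 ± 0.32 (SE), adjusted p = 1.34e-06; limma) and H3K27me3 of 78.7 and 65.2 RPKM in 2HS and 83.4 and 86.3 RPKM in 2NS. The RNA groups did not overlap, and the mark was lower in both 2HS libraries without passing the test. The zinc-finger genes are similar copies, so reads may be shared among them. BCB, a blue copper-binding protein gene, had nuclear RNA of 17.1, 62.2 and 139 RPKM in 2HS and 0.326, 0.467 and 6.94 RPKM in 2NS (log2 difference 4.85 ± 0.55 (SE), adjusted p = 5.62e-05; limma) and H3K27me3 of 56.0 and 46.8 RPKM in 2HS and 30.7 and 60.4 RPKM in 2NS. It was also the marked gene at which H2A.Z fell, with means of 12.7 RPKM in 2HS and 30.7 RPKM in 2NS.

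Poly(A)+ RNA, TRAP RNA or both fell at other marked genes. ZFP8, a zinc-finger gene that controls trichomes, had poly(A)+ RNA of 0.643, 1.23 and 2.25 RPKM in 2HS and 2.88, 4.10 and 4.98 RPKM in 2NS (log2 difference -1.30 ± 0.18 (SE), adjusted p = 2.04e-05; limma), and its H3K9ac was 16.8 and 17.2 RPKM in 2HS and 61.7 and 69.5 RPKM in 2NS (log2 difference -1.87 ± 0.14 (SE), adjusted p = 4.45e-05; limma). Its H3K27me3 was 43.0 and 25.3 RPKM in 2HS and 14.7 and 40.7 RPKM in 2NS, overlapping between groups. PYL6, an abscisic acid receptor gene, had TRAP RNA of 2.82, 3.31 and 4.31 RPKM in 2HS and 10.1, 13.4 and 14.8 RPKM in 2NS (log2 difference -1.56 ± 0.22 (SE), adjusted p = 0.000246; limma) and H3K27me3 of 30.9 and 36.2 RPKM in 2HS and 36.9 and 53.4 RPKM in 2NS. AT2G04050, a MATE efflux transporter gene, had TRAP RNA of 1.70, 2.07 and 2.67 RPKM in 2HS and 15.3, 17.6 and 23.5 RPKM in 2NS (log2 difference -2.58 ± 0.19 (SE), adjusted p = 4.07e-06; limma) and H3K27me3 of 34.2 and 33.8 RPKM in 2HS and 45.3 and 39.9 RPKM in 2NS. At both, poly(A)+ and TRAP RNA and the mark were lower in all 2HS libraries than in all 2NS libraries, and the RNA passed the test while the mark did not; their nuclear RNA overlapped and was not called (adjusted p = 0.615 and 0.195, limma). With groups centred or with no centring, 1 marked gene in place of 71 was called lower in poly(A)+ RNA. AT4G25780, AT1G62500, AT4G12510 and AT4G12520 fell in both poly(A)+ and TRAP RNA, the last 2 being similar neighbouring copies whose reads may be shared. None of these was called in nuclear RNA (adjusted p = 0.686, 0.949, 0.843 and 0.788, limma). At AT4G12510 and AT4G12520 mean nuclear RNA was higher in 2HS, at 2.29 and 2.09 RPKM, than in 2NS, at 1.37 and 1.02 RPKM. KNAT1, a meristem homeobox gene, had TRAP RNA of 3.46, 4.21 and 4.79 RPKM in 2HS and 8.11, 8.55 and 10.3 RPKM in 2NS (log2 difference -0.89 ± 0.19 (SE), adjusted p = 0.00440; limma).

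The mark at genes whose RNA changed was set against that at marked genes whose RNA was not called. Of the 112 genes higher in poly(A)+ RNA, 51 had under 1 RPKM in 2NS and passed the filter through 2HS. With groups centred, 18 marked genes in place of 112 were called higher in poly(A)+ RNA, and 1 in place of 71 lower. The medians carry no test. At the 112 genes higher in poly(A)+ RNA, the median centred log2 difference in H3K27me3 was -0.25, and at the 71 lower ones -0.21, against -0.14 at 622 genes not called. At the 308 genes higher in TRAP RNA it was -0.18, and at 169 lower ones -0.15, against -0.16 at 900 not called. At the 28 genes higher in nuclear RNA it was -0.31, against -0.14 at 1011 not called. Taken from the deeper 2HS library alone, the medians were -0.09, 0.02 and -0.19 at genes higher in poly(A)+, TRAP and nuclear RNA, and from the shallower alone -0.38, -0.33 and -0.40. At genes not called they were 0.09, 0.06 and 0.06 from the deeper library and -0.33, -0.33 and -0.30 from the shallower. At genes lower in poly(A)+ and TRAP RNA they were -0.03 and 0.02 from the deeper library and -0.27 and -0.29 from the shallower. The sign turned with the library at genes higher or lower in TRAP RNA and at the genes not called in each RNA assay. Median H3K27me3 at the 112 genes was 39.3 RPKM in 2HS and 46.4 RPKM in 2NS; the rule that chose marked genes used these 2 columns. At least 2-fold lower in the mark were 5 of the 112 and 9 of the 622 not called, against 1.94% of all marked genes, and at least 2-fold higher were 0 and 4.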

How the data were processed

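H3K27me3 and the other ChIP-seq signals, nuclear, poly(A)+ and TRAP RNA were deposited by the authors as RPKM per gene, as the mean of each group. Bowtie2, TopHat2 and HOMER, with the TAIR10 build, are named in the submitters' processing notes, without roles or versions, and libraries were tagmented per the labels' protocols. The authors' deposited peak lists give each peak's distance in bases to the nearest start site, per the file headers; peaks from 1000 bases before to 100 bases after a start were counted.

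From the deposited RPKM, whole reads of each library were recovered where only 1 set of reads gave the mean, which fixed relative depth; genes with several solutions were not tested. Recovered libraries carry no replicate number and are called deeper and shallower. Total reads were 4.36 to 8.76 M in the H3K27me3 libraries. Values were tested as log2(RPKM + 1), centred on each library's median gene, for genes averaging 1 RPKM or more, with limma 3.58.1 in R 4.3.3 and Benjamini-Hochberg adjustment over all genes tested; a gene was called at an adjusted p under 0.05. Fold changes on this scale understate the change of low genes. Tables were made with Python 3.11.15, pandas 2.3.3, numpy 2.4.6 and scipy 1.17.1. The fit was tried on simulated libraries, none of which stood apart as the deeper 2HS library did. That trial therefore says nothing of the power of the fit on these data. Genes named come from the 12 with the most mark, the 8 highest and 8 lowest differences, the 3 on each side of the 20 RPKM limit, the 8 with the most poly(A)+ RNA, the 8 largest rises and falls in poly(A)+ and nuclear RNA, and the listed genes. The microRNA genes, the genes higher in all 3 RNA assays, the zinc-finger group and the runs were chosen after their values were seen. The marked genes and the lists were chosen with earlier results of these data known. Alternatives were other pseudocounts, filters, centrings, membership levels and leaving out each library.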

Additional observations from a re-analysis of the deposited data

How the results depend on the processing

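No paired analysis was possible because the recovered libraries carry no replicate number. Leaving out 1 H3K27me3 library at a time gave 0 to 2072 calls over all genes, in place of 0, and a median log2 difference at marked genes of -0.30 to 0.047, in place of -0.15. The 0.047, which turned the direction, came without the shallower 2HS library. The cause was not tested.

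The remaining settings concern calls at marked genes in the other assays, of which no centring and a pseudocount of 0.1 RPKM were planned and the others were chosen after seeing the data. The pseudocount moved no count by over 1.5 times. Leaving out 1 library gave 355 to 657 calls in H3K9ac (650 with all), 0 to 26 in H3K14ac (33), 5 to 1184 in H2A.Z (1), 15 to 32 in nuclear RNA (30), 132 to 182 in poly(A)+ RNA (183) and 374 to 495 in TRAP RNA (477). Without centring, 21 were called in H3K14ac, 9 in nuclear RNA and 33 in poly(A)+ RNA. With each library scaled by its median ratio, 80 were called in nuclear RNA, and with groups centred 19 in poly(A)+ RNA. The causes were not tested.

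With 2 libraries a group, the 95% interval of a marked gene's log2 difference in H3K27me3 had a median half-width of 0.79. Genes whose reads were not resolved, in RNA and also in H3K4me3 and Ser2-phosphorylated polymerase, were not tested.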
